A study of Drosophila melanogaster with 90 samples.

Results

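These measurements concern mated females of the inbred Drosophila melanogaster line Tasmania 01, compared by the line of the male they had mated with. The libraries were taken by their labels: 15 of the 89 libraries in the count table (90 are labelled), in 5 groups of 3. The comparison itself was chosen with earlier results of these data known. The whole study crossed females and males of 5 inbred lines in all 25 combinations, kept virgins of each line, and sequenced RNA of whole females. The females compared here had mated with Beijing 04 males (group TB), Ithaca 16 males (TI), Netherlands 01 males (TN), males of their own line (TT) or Zimbabwe 184 males (TZ). Beside them stand 3 libraries of virgin Tasmania 01 females (TV). Per the labels, flies were 3 to 5 days old, were reared at 25 °C, and the mated ones were frozen 5 to 6 h after the start of mating. Each library pooled 5 to 10 females, and the 3 replicates of a group came from separate bottles. Every line is inbred, so each male line is a single genotype, and pooling hides differences between flies of a library.

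Insects answer microbes and wounds with a small set of humoral pathways. In Drosophila the Imd and Toll pathways lead through NF-kB factors to antimicrobial peptides, which the fat body secretes into the blood. The JAK-STAT pathway raises thioester proteins and Turandot stress proteins, and cascades of serine proteases, held back by serpins, lead to melanin. Mating is itself known to alter the levels of immune transcripts in female flies, through proteins and sperm received from the male. Whether that response depends on the genotype of the mate is the question this comparison addresses.

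Levels below are CPM, read counts scaled to a common library total, and use library sizes scaled by the trimmed mean of M values. Total counts of the 15 mated libraries ran from 5759452 (TN replicate 3) to 29237655 (TB replicate 3), and the virgin libraries had 13139297 to 26110627. The female yolk protein transcript Yp1 stood between 6359 and 18369 CPM in the 15 libraries, and transcripts of testis and sperm summed to 0.675 to 3.97 CPM. Seminal fluid transcripts summed to 4.79 to 8.50 CPM. Some transcripts were chosen as lacking in Tasmania females (limit 0.2 CPM) and expressed in another line (at least 2 CPM). They were at 0.377% to 3.96% of that line's level in the mated libraries, where low shares largely follow from the choice. In virgin replicate 3 they reached 18.4%, so values of that library are to be read with this in view. The replicates differed by far more than counting error: for each of the 15 pairs within a group, chi-square per degree of freedom was 28.8 or higher.

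Male line made a difference in 25 of 12045 genes tested (edgeR quasi-likelihood test over the 5 groups, Benjamini-Hochberg adjusted p under 0.05), which is 0.208% of genes. Of the 25, 8 belong to the gene lists used here, all of them immune genes: 4 cecropins, an attacin, a defensin and a pair of thioester proteins. The genes outside the lists include a serpin and a protease of the melanization cascade. All 25 were high in replicate 1 of females mated with own-line and with Zimbabwe males. Of the 25, TT replicate 1 held the highest of the 15 libraries for 17 genes and TZ replicate 1 for 8. These were the top pair of libraries for 23 of the 25, against 1.83% of all genes tested. Replicate 3 of these groups did not share the excess: TT replicate 3 exceeded all 9 libraries of TB, TI and TN for 3 of the 25 genes (12.1% of all genes) and TZ replicate 3 for 5 (9.52%). Replicate 2 was above all 9 libraries for 18 of the 25 genes in TT (10.9% of all genes) and for 18 in TZ (7.86%). Replicate 1 was above all 9 for 25 of 25 in TT (13.1% of all genes) and in TZ (7.7%). All 3 libraries of TT were above the 9 for 3 of the 25 genes (1.1% of all genes), and all 3 of TZ for 4 (0.133%). The genes were chosen by a test on these same libraries, so their positions describe where the calls come from and do not support them.

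**Figure D1:**
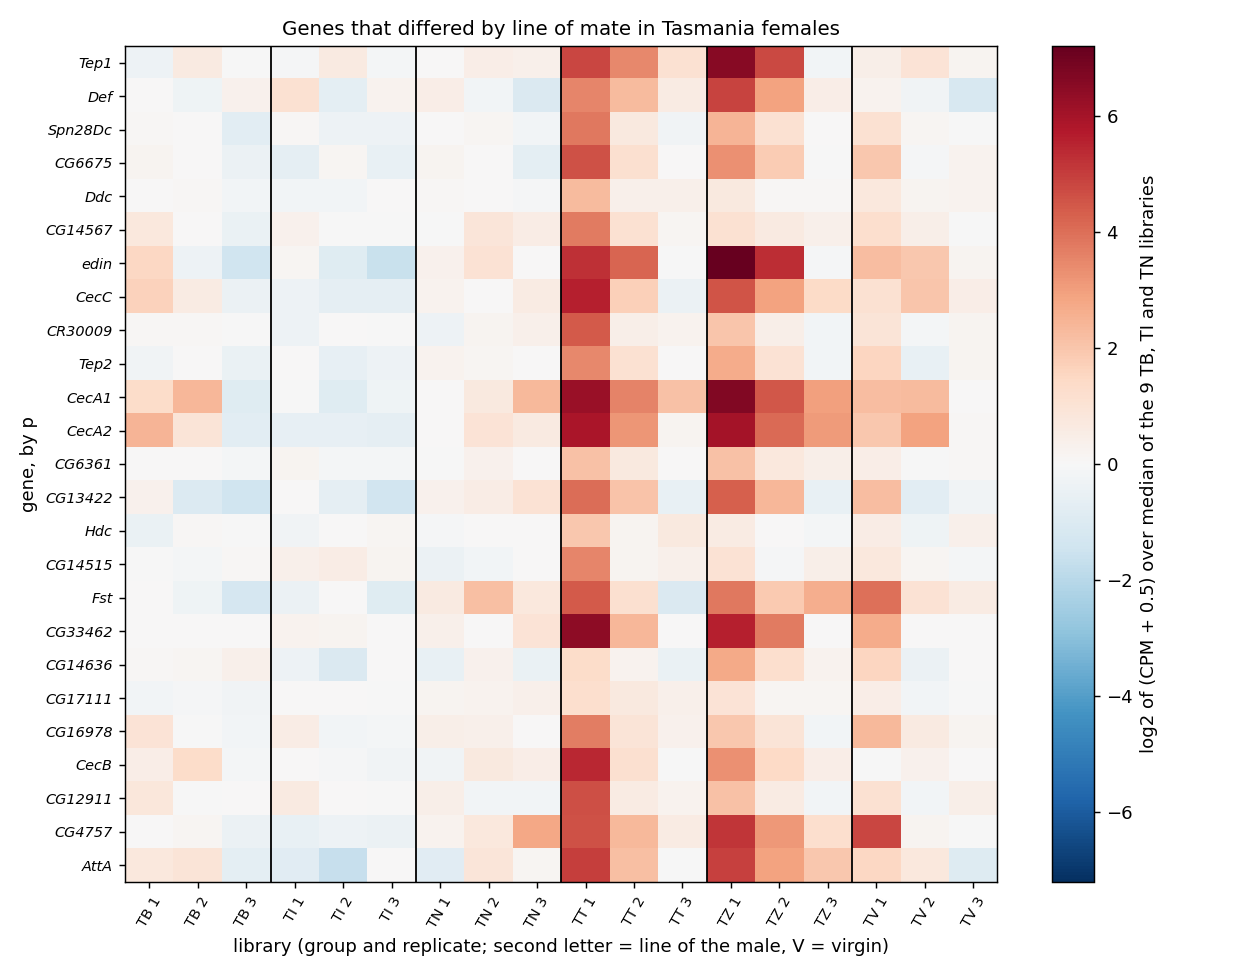
Level of the 25 genes that differed by line of mate (one per line of the map, ordered by p) in the 15 mated and 3 virgin Tasmania libraries, as log2 of CPM plus 0.5 over the median of the 9 TB, TI and TN libraries. TT replicate 1 and TZ replicate 1 are dark red for nearly every gene, replicate 2 of these groups is paler, and replicate 3 is close to the 9 libraries for most genes.

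The call for a male line depended on these libraries. Without TT replicate 1 and TZ replicate 1, 2 genes passed, the thioester protein gene Tep1 and the uncharacterised gene CG10183, each at an edgeR adjusted p of 0.0478. Of these, 1 was among the 25, Tep1. CG10183 was not, and it rests on TZ replicate 3, with 3.54 CPM where TZ replicates 1 and 2 had 0. Fitted on the 15 libraries alone, where both the spread and the filter on low counts are taken from these groups and not from all 89 libraries, 0 genes passed by edgeR. Of 9953 genes then tested, 268 had an unadjusted p under 0.05, against 613 of 12045 in the fit on all libraries. DESeq2's likelihood ratio test on all libraries called 34 genes, 23 of them among the 25. Here and below, DESeq2's flag for genes with an outlying library was turned off.

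Set against the mean of the other 4 male lines, females mated with Beijing, Ithaca or Netherlands males had 0 called genes each in edgeR's test. Unadjusted, 301, 302 and 163 genes had a p under 0.05, and DESeq2's Wald test called 20, 16 and 27. Own-line males gave 25 called genes, 24 higher (0.199% of genes) and 1 lower (0.0083%), and Zimbabwe males gave 10, all higher (0.083%). The contrasts share libraries, so their calls are not independent: 4 genes were called for both male lines. The count for own-line males was 0 without TT replicate 1, 16 without TB replicate 3 or TZ replicate 2, 47 without TZ replicate 1 and 60 without TT replicate 3. The count for Zimbabwe males was 2 without TZ replicate 1, 20 without TT replicate 1, and 6 without TB replicate 2, TI replicate 2, TI replicate 3 or TN replicate 1. Over all 5 groups the count was 13 without TT replicate 1. A library that is high in one of these groups thus also enters the mean that the other group is set against.

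**Figure D2:**
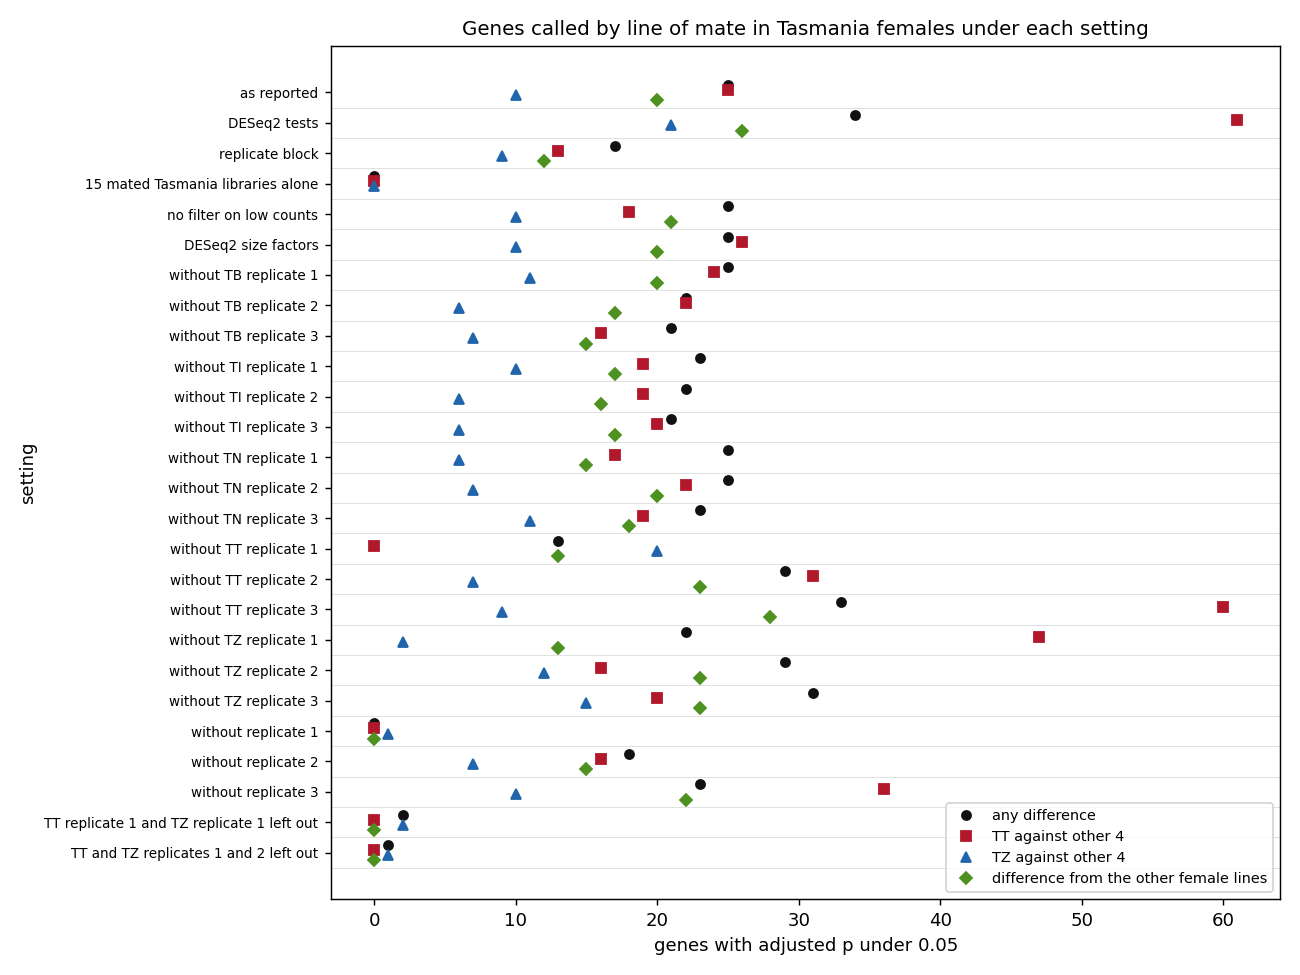
Number of genes with an adjusted p under 0.05 (horizontal axis) under each setting (vertical axis), for the test over 5 male lines, for own-line and Zimbabwe males against the other 4, and for the difference from the other female lines. Counts drop to between 0 and 2 where replicate 1 of TT and TZ is left out together, and to 0 where the 15 libraries are fitted alone.

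Peptides mainly downstream of Imd were the list with the most calls over the 5 groups. Of 11 measured members, 5 differed by male line (CecA1, CecA2, CecB, CecC and AttA), against 0.208% of all genes tested. Of the same 11, 4 were higher with own-line males (0.199% of all genes) and 2 with Zimbabwe males (0.083%). The median log2 change was 2.65 for own-line and 2.48 for Zimbabwe males, against 0.03 and -0.00 over all genes tested. It was -0.91, -2.80 and -1.49 for Beijing, Ithaca and Netherlands males. Each group is set against the other 4, so high TT and TZ values in themselves push the values of the other groups down. Summed over the list, levels were 742, 199 and 83.0 CPM in TB, 289, 114 and 112 CPM in TI, and 243, 479.8 and 293 CPM in TN (replicates 1 to 3). The sum was 2918, 735 and 164 CPM in TT and 3949, 949 and 509 CPM in TZ. TT replicates 2 and 3 and TZ replicate 3 thus lay within the range of the 9 other libraries. TT replicate 2 was just below the 742 CPM of TB replicate 1. Virgins stood at 574, 482 and 189 CPM. Whether more cells made these transcripts or each cell made more cannot be told apart in RNA of whole flies. Without replicate 1 of TT and TZ, 0 of the 11 were called by edgeR, and the medians were 0.76 and 1.49.

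**Figure D3:**
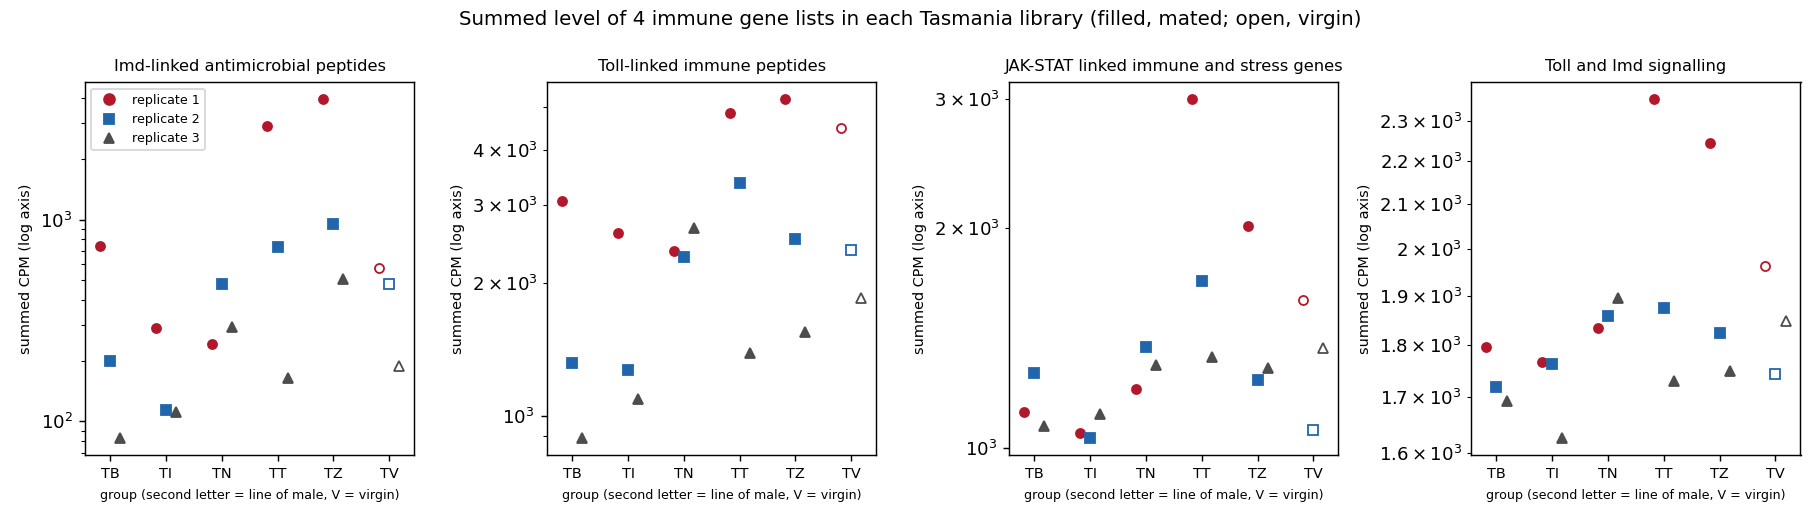
Summed CPM (log axis) of 4 immune gene lists in each Tasmania library, by group, with the marker showing the replicate and open markers showing virgins. For Imd-linked peptides, TT and TZ replicate 1 stand at 2918 and 3949 CPM, replicate 2 at 735 and 949, and replicate 3 at 164 and 509. TT replicates 2 and 3 and TZ replicate 3 lie inside the range of the TB, TI and TN libraries, whose highest is 742 CPM.

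Cecropins, which lyse bacterial membranes, had the 4 largest log2 changes of this list for own-line males. CecA1 was at 0.276 to 7.11 CPM in the 9 TB, TI and TN libraries (median 0.944), at 107, 17.1 and 5.76 CPM in TT, and at 145, 31.9 and 10.8 CPM in TZ. All 3 TZ libraries were above the 9, though TT overlapped them. The log2 change against the other male lines was 3.92 ± 0.75 (SE) for Zimbabwe males (edgeR, adjusted p = 0.00524) and 3.27 ± 0.75 for own-line males (adjusted p = 0.036). CecA2 gave 3.98 ± 0.78 and 3.51 ± 0.78 in the same contrasts. CecA1 and CecA2 are near-identical copies, as are AttA and AttB, so their separate values are uncertain. CecC reached 43.2 CPM in TT replicate 1 and 20.0 in TZ replicate 1, but 0.172 and 1.80 CPM in replicate 3, against 0.0654 to 2.30 CPM in the 9 libraries. CecB was at 25.1, 0.818 and 0.0860 CPM in TT and at 5.42, 1.08 and 0.337 CPM in TZ, so its call with own-line males rests on replicate 1. Without TT replicate 1, the adjusted p in edgeR was 1 for CecB and 0.949 for CecC in that contrast.

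AttA, an attacin active against Gram-negative bacteria, was at 2.14 to 15.3 CPM in the 9 libraries. It stood at 263, 37.2 and 7.48 CPM in TT and at 254, 62.4 and 30.9 CPM in TZ, and differed over the 5 groups (edgeR, adjusted p = 0.0302). Its copy AttB had 655, 112 and 22.2 CPM in TT and 732, 172 and 85.2 CPM in TZ, with an adjusted p of 0.055. The remaining members did not pass, though replicate 1 was again the highest library of TT and of TZ for each one detected there. AttC was at 45.0 to 161 CPM in the 9 libraries, at 512, 231 and 51.7 CPM in TT, and at 1071, 268 and 219.6 CPM in TZ (adjusted p = 0.951 in edgeR). The drosocin gene Dro ran from 6.67 to 114 CPM in the 9 libraries and reached 548 and 679 CPM in replicate 1 of TT and TZ. Dpt, a diptericin, shows how wide the other groups were: TB alone spanned 386, 50.7 and 9.38 CPM, TB replicate 1 being close to the 416 CPM of TT replicate 1. AttD was almost silent in this line, with reads in 3 of the 15 libraries at up to 0.165 CPM, where the median over 59 mated libraries of the other lines was 0.944 CPM.

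Toll-linked peptides gave fewer calls. Of 19 measured members, 1 differed by male line (0.208% of all genes tested did), the defensin gene Def, which acts against Gram-positive bacteria. Def was at 6.25, 4.87 and 7.76 CPM in TB, at 13.7, 3.59 and 7.52 CPM in TI, and at 8.77, 5.42 and 2.81 CPM in TN. It reached 78.4, 32.9 and 9.55 CPM in TT and 199.97, 50.6 and 9.04 CPM in TZ. Replicates 1 and 2 of TT and TZ were above all 9 other libraries and replicate 3 was inside their range. The log2 change for Zimbabwe males was 3.04 ± 0.41 (edgeR, adjusted p = 2.18e-06). It was 1.68 ± 0.43 for own-line males, which did not pass (adjusted p = 0.0797). Without TZ replicate 1 Def was not called for Zimbabwe males (adjusted p = 1 in edgeR). Median log2 changes of the list were 0.46 for own-line and 0.34 for Zimbabwe males, with 0 and 1 members called.

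Drs, the antifungal peptide drosomycin and a standard readout of Toll, was at 148 to 400.1 CPM in the 9 libraries. It was at 776, 463 and 187 CPM in TT, at 809.8, 332 and 237 CPM in TZ, and at 781, 316 and 270.3 CPM in virgins. Virgin replicate 1 was thus as high as the highest mated libraries, and no contrast passed for Drs. The short peptide gene IM1 had the same shape, with 473 CPM in TT replicate 1, 498 CPM in TZ replicate 1 and 483 CPM in virgin replicate 1, against 28.8 to 150.2 CPM in the 9 libraries. IM23 reached 241, 235 and 167 CPM in those 3 libraries, against 8.85 to 76.4 CPM. Summed over the list, the 9 libraries lay between 892 and 3060.4 CPM, TT at 4834, 3367 and 1390.1 CPM, TZ at 5205, 2513 and 1548 CPM, and virgins at 4481, 2374 and 1847 CPM. Replicate 1 was the highest library in TB, TI, TT, TZ and virgins alike.

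**Figure D4:**
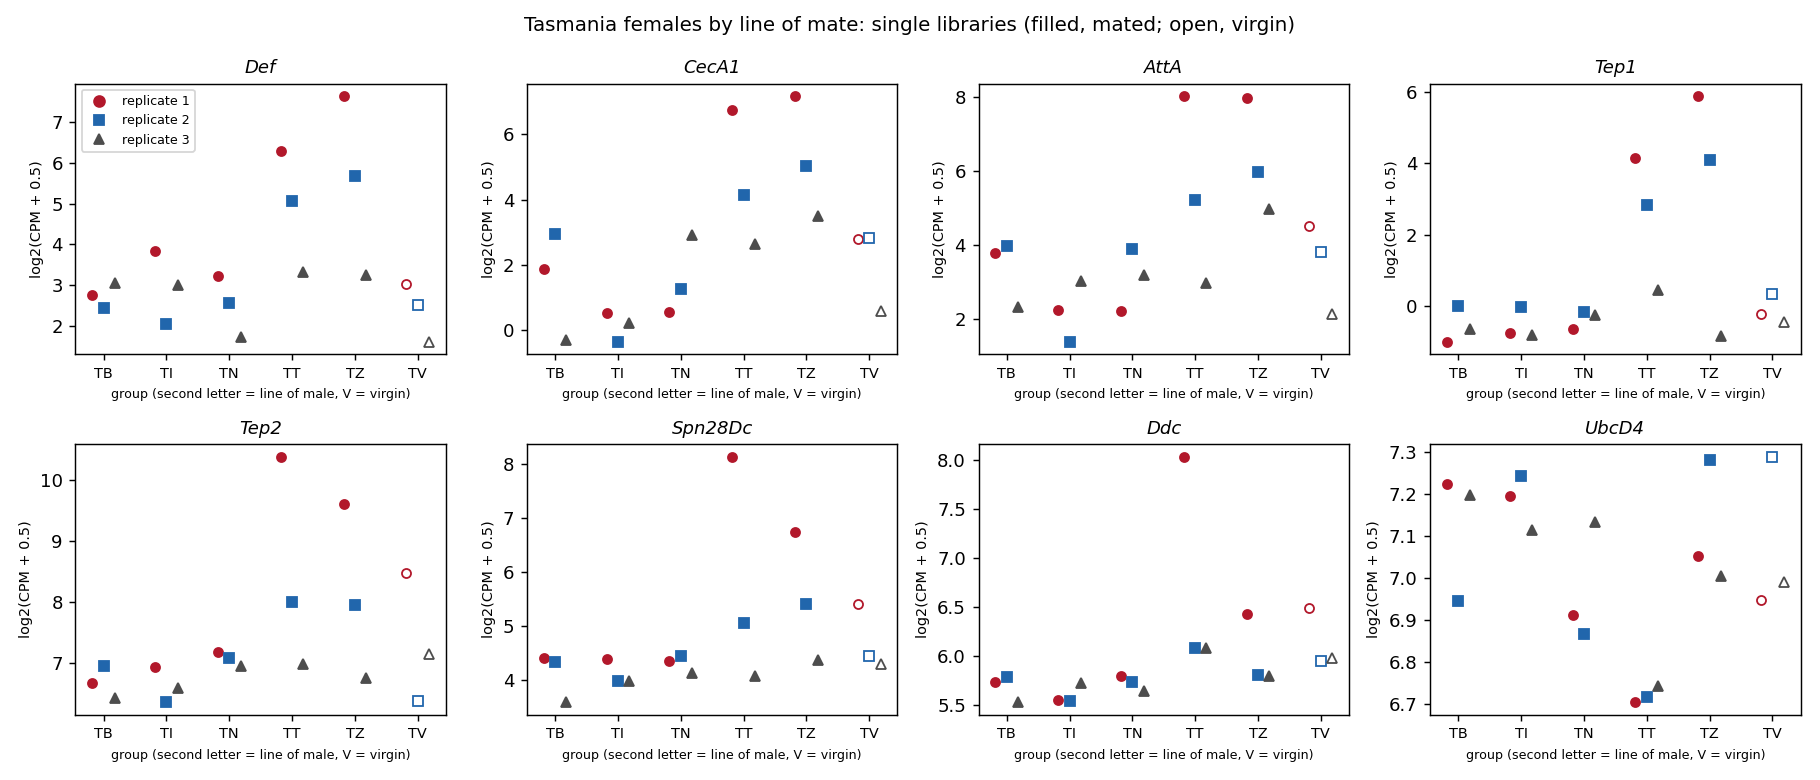
Level of 8 genes in each Tasmania library as log2 of CPM plus 0.5, by group, with the marker showing the replicate (filled, mated; open, virgin). In Def, CecA1, AttA, Tep1, Tep2 and Spn28Dc replicate 1 is the highest point of TT and of TZ, Ddc is high in TT replicate 1, and UbcD4 is low in all 3 TT libraries.

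Genes linked to JAK-STAT gave 2 of 19 members called over the 5 groups, Tep1 and Tep2, with 3 higher with own-line males (Tep1, Tep2 and TotA) and 1 with Zimbabwe males (Tep1). The shares over all genes tested were 0.208%, 0.199% and 0.083%. Tep1 encodes a thioester protein, a relative of vertebrate complement, and had the smallest p of all genes. It was nearly absent in TB (0, 0.492 and 0.133 CPM), in TI (0.0933, 0.483 and 0.0654 CPM) and in TN (0.135, 0.387 and 0.331 CPM). It reached 17.1, 6.63 and 0.860 CPM in TT and 58.5, 16.5 and 0.0561 CPM in TZ, so that replicate 3 of TZ was below 8 of the 9 other libraries. Its log2 change was 5.35 ± 0.65 for Zimbabwe males (edgeR, adjusted p = 1.50e-07) and 3.35 ± 0.66 for own-line males (adjusted p = 0.00305). Over the 59 mated libraries of the other lines Tep1 did not exceed 0.856 CPM. Without replicate 1 of both groups the change for Zimbabwe males was 4.05 ± 0.79 (edgeR, adjusted p = 0.0204), resting on TZ replicate 2. With replicates 1 and 2 left out, which was chosen after the values were seen, it was -2.42 and did not pass.

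Tep2, the second thioester gene, was at 81.7 to 144 CPM in the 9 libraries, at 1331, 256 and 126 CPM in TT and at 777, 248 and 108 CPM in TZ. Here TT replicate 1 was the highest, where Tep1 was highest in TZ replicate 1. The log2 change for own-line males was 1.92 ± 0.37 (edgeR, adjusted p = 0.00239). TotA, a humoral stress protein, stood at 264, 95.7 and 12.1 CPM in TT and at 5.37 to 31.0 CPM in the 9 libraries, with a log2 change of 2.51 ± 0.60 (adjusted p = 0.0472). These levels are low for TotA, whose median in mated females of the other lines was 247 CPM.

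The cascades that lead to melanin were represented by a serpin and a protease. Spn28Dc, a serpin that restrains phenoloxidase activation, was at 11.5 to 21.2 CPM in the 9 libraries, at 279.7, 32.5 and 16.3 CPM in TT and at 107, 41.9 and 20.0 CPM in TZ. The groups overlapped through replicate 3, and the log2 change for own-line males was 2.22 ± 0.33 (edgeR, adjusted p = 2.92e-05). CG6361, now named Hayan, encodes a serine protease of the same cascade. It stood at 13.0 to 18.0 CPM in the 9 libraries, at 64.3, 24.3 and 14.9 CPM in TT and at 64.0, 24.4 and 19.8 CPM in TZ (adjusted p = 0.00371 over the 5 groups). Ddc encodes dopa decarboxylase, which makes dopamine for neurons and for hardening cuticle. It was at 45.7 to 55.2 CPM in the 9 libraries, at 262, 67.2 and 67.4 CPM in TT and at 85.7, 55.7 and 55.1 CPM in TZ. All 3 TT libraries were above the 9, and the log2 change was 1.29 ± 0.19 (adjusted p = 2.92e-05), but without TT replicate 1 it did not pass (adjusted p = 0.711).

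A further 6 of the 25 genes were higher in TT replicate 1 than in TZ replicate 1, which was itself above all 9 libraries of TB, TI and TN for each of them. Hdc, histidine decarboxylase, the enzyme that makes histamine, was at 35.2, 10.3 and 14.8 CPM in TT and at 13.7, 8.86 and 8.08 CPM in TZ, against 6.09 to 9.68 CPM in the 9 libraries. CG14567 was at 107 CPM in TT replicate 1 and 17.0 CPM in TZ replicate 1. The noncoding RNA CR30009 was at 13.2, 0.363 and 0.258 CPM in TT and at 2.10, 0.359 and 0.0561 CPM in TZ. CG14515 and CG12911 showed the same shape, at 7.07 and 13.5 CPM in TT replicate 1 and at 0.885 and 1.99 CPM in TZ replicate 1. For CG16978 the values were 201 and 59.6 CPM, against 13.3 to 30.4 CPM in the 9 libraries. The calls of these 6 genes were lost without TT replicate 1, in the test over 5 groups and for own-line males.

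The other genes called over the 5 groups were high in both first replicates. edin, a secreted peptide induced by infection, was at 0.196 to 5.60 CPM in the 9 libraries, at 81.0, 39.3 and 1.63 CPM in TT and at 319, 86.8 and 1.52 CPM in TZ. Its log2 change for Zimbabwe males was 5.23 ± 0.84 (edgeR, adjusted p = 0.000195), and it was not called for them without TZ replicate 1 (adjusted p = 1). CG13422, now named GNBP-like3, was at 299.7, 74.4 and 12.3 CPM in TT and at 356, 96.5 and 11.9 CPM in TZ, against 6.37 to 36.5 CPM. Fst, a gene known from cold stress, was at 209, 20.9 and 4.13 CPM in TT, at 134, 35.2 and 59.6 CPM in TZ and at 149, 19.6 and 14.2 CPM in virgins. CG33462 had 0 to 0.496 CPM in the 9 libraries, 42.7, 2.18 and 0 CPM in TT and 23.6, 6.23 and 0 CPM in TZ. CG6675 reached 149 CPM in TT replicate 1 and 61.8 CPM in TZ replicate 1, against 3.31 to 6.75 CPM. CG4757 had 473 and 688 CPM in these libraries but also 554 CPM in virgin replicate 1 and 134 CPM in TN replicate 3. The remaining calls were CG14636, with 4.11 and 11.7 CPM in these libraries against 0.414 to 1.92 CPM, and CG17111, with 82.6 and 70.3 CPM against 30.1 to 46.1 CPM.

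In 2 genes called for own-line males all 3 TT libraries stood apart from the 12 other mated libraries. UbcD4, which encodes a ubiquitin-conjugating enzyme, fell: it was at 104, 105 and 107 CPM in TT and at 116 to 151 CPM in the 9 libraries, with 132, 155 and 128 CPM in TZ. The log2 change was -0.38 ± 0.09 (edgeR, adjusted p = 0.0299), and the virgins had 123, 156 and 127 CPM. CG15279, listed under the synonym DmNAT6 in the reference annotation, was at 35.6, 29.7 and 25.8 CPM in TT and at 16.4 to 22.3 CPM in the other 12, with a log2 change of 0.60 ± 0.13 (adjusted p = 0.0181). Virgins had 34.6, 22.5 and 27.6 CPM, so TT replicates 2 and 3 lay within their range and TT replicate 1 just above it. Of all genes tested, all 3 TT libraries were above the other 12 in 0.714% and below them in 0.731%. Without TT replicate 1 the log2 changes were -0.37 for UbcD4 and 0.47 for CG15279, and neither passed (edgeR, adjusted p = 0.652 for each of these 2 genes). CG15279 was chosen after its values were seen, as were the other genes called for 1 male line alone that follow.

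For Zimbabwe males 6 of the 10 calls lay outside the lists: edin, CG13422, CG33462 and CG14636, whose levels are given above, and CG43236, now named Mtkl, and CG10183. CG43236 was at 21.7, 5.99 and 4.60 CPM in TZ and at 0.276 to 3.13 CPM in the 9 libraries, with all 3 TZ libraries above these and a log2 change of 2.89 ± 0.65 (edgeR, adjusted p = 0.0408). TT overlapped the 9, at 7.87, 3.82 and 0.516 CPM. The call of CG10183 rests on TZ replicate 3, with 3.54 CPM where replicates 1 and 2 had 0. Further genes called for own-line males were CG15046, CG34054, CG32260 and CG14957, with 11.9, 21.0, 4.51 and 6.27 CPM in TT replicate 1 and 3.96, 1.29, 0.258 and 0 CPM in TT replicate 3.

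Excess in the high libraries is taken here as CPM minus the median of the 9 TB, TI and TN libraries. A gene counts where it is above 4 times that median with an excess above 10 CPM. This held for 33 genes in TZ replicate 1, for 52 in TT replicate 1 and for 0 to 10 genes in each of the other 13 mated libraries. Of them, 30 were shared, which is 90.9% of the TZ list and 57.7% of the TT list. Virgin replicate 1 had 26 such genes and the other virgins 8 each. Over the 33 genes, chosen on TZ replicate 1, the excess in TZ replicate 2 was a median 23.3% of that in TZ replicate 1 (quartiles 20.9% and 26.4%), and it was positive for all 33. In TT replicate 2 it was a median 13.9% (quartiles 12.0% and 19.9%), again positive for all 33. TotA and TotC stood out there, at 111% and 154%. In TT replicate 1 the median was 94.3%, with quartiles of 69.1% and 181%. The share in TT replicate 3 was -1.24% and in TZ replicate 3 it was 0.640%. Over the 52 genes chosen on TT replicate 1, the excess in TT replicate 2 was a median 14.1% of that in TT replicate 1, with quartiles of 6.70% and 24.3%.

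**Figure D5:**
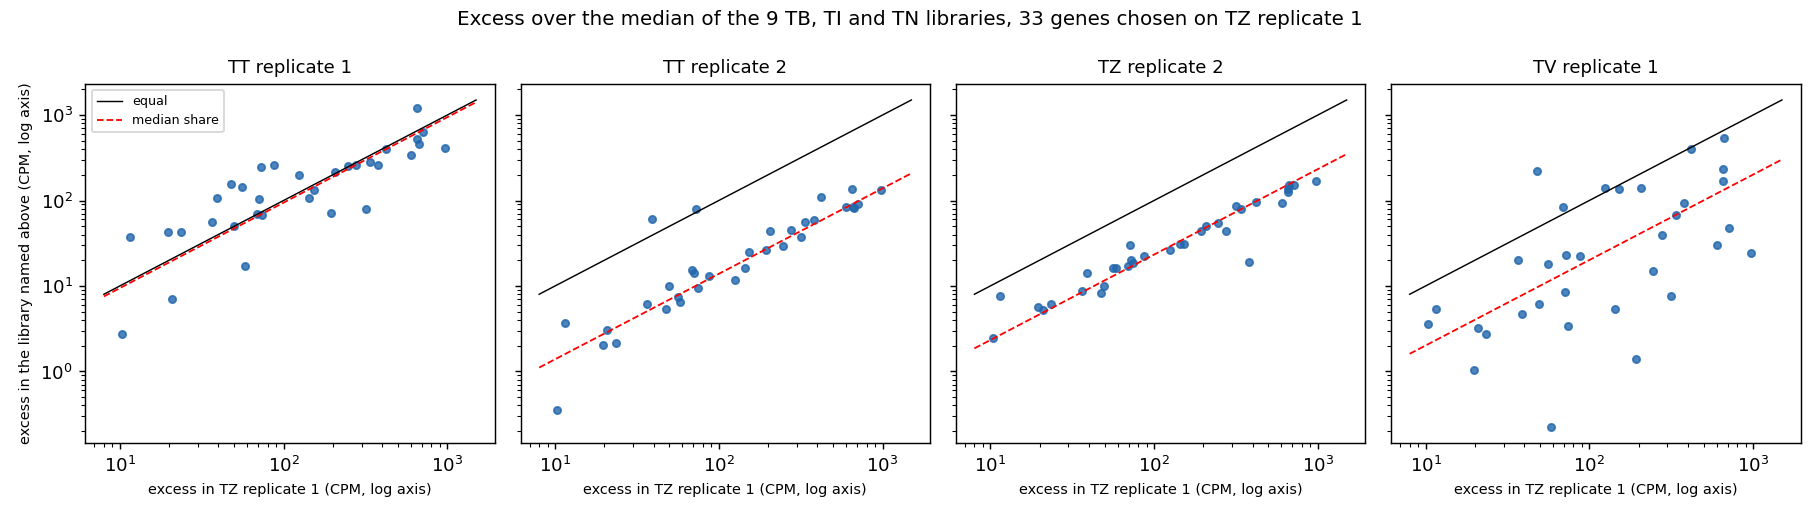
Excess over the median of the 9 TB, TI and TN libraries (CPM, both axes logarithmic) of the 33 genes chosen on TZ replicate 1, in that library (horizontal) and in TT replicate 1, TT replicate 2, TZ replicate 2 and virgin replicate 1 (vertical). Points of TZ replicate 2 and TT replicate 2 lie along their median shares of 23.3% and 13.9%, apart from a few genes, while those of TT replicate 1 (median 94.3%) and virgin replicate 1 (median 20.1%) scatter widely.

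Genes whose levels over the 15 libraries were most like those of AttC, outside the peptide lists, were CG43236 (Pearson r = 0.957 of log2 of CPM plus 0.5), Fst (0.917), CG6361 (0.913), CG13422 (0.911) and edin (0.910). These values describe 15 libraries that share the high replicate 1 of TT and TZ.

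Of 15 genes listed for recognition of peptidoglycan and glucan, 0 were called in edgeR's tests, with a median log2 change of 0.27 for own-line and 0.17 for Zimbabwe males. Of 24 genes listed for Toll and Imd signalling, 0 were called, with medians of 0.03 and 0.08. The summed level of the signalling list was 1627 to 1894 CPM in the 9 libraries, 2355, 1875 and 1730.1 CPM in TT and 2244, 1823 and 1749 CPM in TZ. Replicate 1 of TT and TZ was the highest pair here too. Markers of blood cells did not follow: the hemocyte list summed to 442, 430.4 and 463 CPM in TT and to 424, 379 and 526 CPM in TZ, with 338 to 457 CPM in the 9 libraries. Its defining markers Hml, nimC1 and eater were detected in every library, and 0 of 11 members were called. Over the 5 groups 0.208% of all genes tested were called, so 0 calls in lists this short say little about their members.

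Members of the other 25 lists had 0 calls for any male line in edgeR, where 0.208% of all genes tested were called over the 5 groups. Beside recognition, signalling, hemocytes and lysozymes, these lists cover reproduction, digestion, metabolism, hormones, chaperones, odorant-binding and cuticle proteins, ribosomes and muscle, among others. The 7 measured secreted proteases of the female reproductive tract all had a positive log2 change for own-line males (median 0.96). All had a negative one for Zimbabwe males (median -0.68). Their sum was 319.6, 163 and 245 CPM in TT and 149, 90.4 and 146 CPM in TZ, but TN spanned 105 to 340.1 CPM, so the groups overlapped. Muscle sarcomere genes were positive in 23 of 25 for own-line males (median 0.27), cytochrome P450 genes in 62 of 79 (0.16) and mitochondrial ribosomal protein genes in 6 of 72 (-0.15). Netherlands males gave close counts in these lists (22, 60 and 8), so the shift was not particular to own-line males. Beijing males gave 4, 22 and 54, Ithaca males 2, 26 and 72, and Zimbabwe males 8, 31 and 40. Of all genes tested, 6414 of 12045 were positive for own-line males. Libraries also differed in how level depends on gene length: the slope of log2 level per doubling of length ran from -0.31 (TB replicate 1) to 0.16 (TB replicate 3), with 0.05, -0.09 and 0.15 in TT. Its part in these small shifts was not tested. For own-line males 1462 genes (12.1%) had an unadjusted p under 0.05, and for the other male lines 163 to 302 (1.35% to 2.51%). Few of these genes passed adjustment. With single libraries left out, the own-line count was lowest without TT replicate 1 (877 of 12040) and highest without TZ replicate 3 (1865 of 12044). It was 614 of 12035 without replicate 1 of every mated Tasmania group.

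Whether the pattern differed from that in other female lines was tested as the interaction of male line with Tasmania females against the mean of the other 4 female lines. It passed for 20 genes (0.166%), 18 of them among the 25. Def (adjusted p = 9.43e-05), Tep1 (0.000147) and Spn28Dc (0.000204) had the smallest p in edgeR's quasi-likelihood test. Without replicate 1 of TT and TZ, 0 genes passed and 287 had an unadjusted p under 0.05, against 487 in the fit on all libraries. DESeq2 called 26 genes in all libraries. Ithaca females with Zimbabwe males entered this test with replicates 1 and 3, since replicate 2 has no column. In replicate 1 of that cross, testis and sperm transcripts summed to 1725 CPM and seminal fluid transcripts to 1554 CPM. Medians over the 59 mated libraries of other lines were 1.77 and 6.36 CPM. No setting left out a library of the other lines, so their part in these calls was not tested. High libraries were not confined to Tasmania females. Among 59 mated libraries of other lines, Imd-linked peptides summed to 18.2 to 5618 CPM (median 92.9), and 1 library, Beijing females with Ithaca males replicate 1, exceeded TZ replicate 1. Over the 33 genes chosen on TZ replicate 1, its excess was a median 95.7% of that in TZ replicate 1 (quartiles 29.2% and 155%). Toll-linked peptides summed to 678 to 7732 CPM in the other lines, with 2 libraries above TT replicate 1.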

How the data were processed

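The deposited table holds raw read counts per gene and library, whole numbers with no normalization by the authors, made per the submitters' processing notes with FastQC, Trimmomatic, TopHat2 and HTSeq on build dm3. Versions, annotation and strand setting are not given in the sources used here, and the kit does not mark strand, so reads of antisense or overlapping genes may be shared between them. Of 14522 gene rows, 8 without a gene symbol were left out, and 89 of 90 labelled libraries have a column. Current gene names came from a RefSeq table of another build (14321 symbols matched, 98.7%), so no coordinates are given.

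Counts were analysed with R 4.3.3 and edgeR 4.0.16: filterByExpr over 30 groups (12045 genes), TMM scaling, and a robust quasi-likelihood fit with 1 mean per group to all 89 libraries. The tests were male line in mated Tasmania females (4 contrasts together), each male line against the mean of the other 4, and the interaction with female line, each adjusted by the Benjamini-Hochberg method over all genes, two-sided, at 0.05. Standard errors are the absolute log2 change over the square root of F. Scripts were tested on simulated counts.

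Named are all genes called over the 5 groups, the 3 largest called rises and falls per male line, the 8 smallest p of the interaction, members of the Imd- and Toll-linked lists, called members of the other lists and the 5 genes most like AttC (mean of at least 1 CPM). The groups, the 28 gene lists and the tests were chosen with earlier results of these data known. Among these was that replicate 1 of TT and TZ is high in immune genes. Alternatives were DESeq2 1.42.0 tests and size factors, no filter, a replicate block, the 15 libraries alone, and leaving out mated Tasmania libraries.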

Additional observations from a re-analysis of the deposited data

Results flagged for a closer look

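The dependence on male line differed between Tasmania females and the mean of the other 4 female lines for all 20 genes it called, by the interaction in edgeR's quasi-likelihood test with Benjamini-Hochberg adjustment. Among peptides the adjusted p was 9.43e-05 for Def, 0.0012 for CecC, 0.00554 for CecA2, 0.00771 for AttA and 0.014 for AttB. It was 0.000147 for Tep1 and 0.00546 for Tep2, the thioester protein genes. For the serpin gene Spn28Dc it was 0.000204, for the protease gene CG6361 0.00546, for CG13422 0.00164 and for edin 0.0398. It was 0.00164 for Ddc and 0.0322 for Hdc, the decarboxylase genes. The remaining genes were CG6675 (adjusted p = 0.00118), Fst (0.0138), CG14567 (0.0138), CG16978 (0.0138), CG14636 (0.028), CG17111 (0.0377) and CG34054 (0.0419). In each of them TT replicate 1 and TZ replicate 1 were above all 9 libraries with Beijing, Ithaca or Netherlands males. With these libraries left out, 0 of the 20 passed.

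Beijing females with Ithaca males replicate 1 was the highest mated library of the other lines for many of the same genes. Among them were Def (62.9 CPM), CecC (19.1 CPM), CecA2 (19.9 CPM), edin (351 CPM) and Tep2 (1174 CPM). This library enters the interaction through the mean of the other female lines. No setting left it out, so how far the interaction calls rest on it was not tested. The labels name no batch, infection or wound that it shares with TT replicate 1 and TZ replicate 1. What these libraries have in common was not tested.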

How the results depend on the processing

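Over the 5 groups the count of called genes was 25 under DESeq2's size factors and with no filter, with the same 25 genes, and 0 in the 15 libraries alone. It was 2 without TT and TZ replicate 1 (Tep1 and CG10183), of which 1, Tep1, was among the 25. A setting chosen after seeing the data left out TT and TZ replicates 1 and 2. There CG10183, which rests on TZ replicate 3, had a log2 change of 5.71 for Zimbabwe males. Leaving out 1 library at a time gave 13 to 33, leaving out every replicate 1, 2 or 3 of the mated Tasmania groups gave 0, 18 and 23. For own-line males DESeq2's tests called 61 genes (38 higher, 23 lower), 19 of them among the 25, the 15 libraries alone 0, and both settings without replicate 1 of TT and TZ 0; single libraries left out gave 0 to 60, and whole replicate numbers 0, 16 and 36. For Zimbabwe males the counts were 21 (DESeq2; 11 higher, 10 lower), 0 (15 libraries alone), 2 and 1 (TT and TZ replicate 1, or 1 and 2, left out), 2 to 20 (single libraries) and 1, 7 and 10 (replicate numbers). For Beijing, Ithaca and Netherlands males DESeq2 called 20, 16 and 27 genes; single libraries left out gave 0, 0 to 1 and 0, and whole numbers at most 0, 1 and 1. The interaction had 13 to 28 calls without single libraries, 0, 15 and 22 without a replicate number, and 0 in both settings that leave out TT and TZ replicate 1.

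With the replicate block the calls were 17 over the 5 groups (14 of the 25 genes kept, 11 lost), 13 for own-line males (11 of 25 kept, 14 lost), 9 for Zimbabwe males (7 of 10 kept), 1 for Netherlands males and 12 for the interaction (12 of 20 kept). Same-numbered libraries deviated together in 26 of 30 pairs (r over 0.1; median 0.34, lowest -0.63) and libraries of different number in 13 of 60 (median -0.19), and 11 of 15 libraries were closest to their own number. This is a hint from the data that the numbers pair the libraries, but the design text gives separate bottles per replicate without saying whether same-numbered groups shared one, and not every pair passed 0.1, so the fits reported carry no block.

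Directions of called genes that turned are these log2 changes. Over the settings that leave out a library or a replicate number, the values for own-line males ran from -0.44 to 2.85 for Fst, -0.24 to 2.28 for CG34054 (-0.15 to 2.37 in the interaction), -1.97 to 4.22 for CG14957 and -0.37 to 2.71 for CG32260, each lowest without TT replicate 1. CG10183 with Zimbabwe males ran from -3.48, without TZ replicate 3, to 4.97. With TT and TZ replicate 1 left out, own-line values were -0.27 for Fst, -1.78 for CG14957 and -0.14 for CG32260. With TT and TZ replicates 1 and 2 left out, own-line values were -0.17 for Spn28Dc, -0.14 for CG14567, -1.66 for CecC, -0.97 for CecA2, -1.94 for Fst, -1.84 for CG33462, -1.27 for CecB, -0.40 for TotA, -0.49 for CG34054, -4.04 for CG14957 and -0.42 for CG32260. Zimbabwe values were then -2.42 for Tep1, -0.10 for edin, -0.31 for CG13422 and -1.84 for CG33462, and interaction values -2.30 for Tep1, -0.032 for Spn28Dc, -0.21 for CG14567 and -0.40 for CG34054. Each group then rests on 1 library, assumed to vary like the others. Replicates from separate bottles are few, and over all genes they differed by far more than counting error. Some called genes also had few reads, such as CG14515 with 8 in TZ replicate 1. The part of depth was not tested.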

Other observations

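Several genes with excess in TT replicate 1 were not called for any male line and are picked here with their values in view. PGRP-SA, a recognition receptor upstream of Toll, was at 73.6, 31.0 and 18.0 CPM in TT and at 30.4, 21.8 and 13.9 CPM in TZ, with a median of 16.9 CPM in the 9 libraries of TB, TI and TN. The serpin gene Spn88Eb was at 184, 74.3 and 22.6 CPM in TT and at 127, 52.2 and 22.2 CPM in TZ, with a median of 34.2 CPM. The protease gene spirit, of the cascade that activates Toll, was at 58.5 and 50.3 CPM in replicate 1 of TT and TZ and at 12.0 and 12.9 CPM in replicate 3, close to the median of 12.6 CPM. Replicate 1 was the highest library of TT and of TZ for these genes too. Send2, a protease of the sperm storage organs, was at 68.0, 14.1 and 49.1 CPM in TT and at 19.5, 8.14 and 13.7 CPM in TZ, around a median of 15.3 CPM. For Send2 the highest of the 15 libraries was TN replicate 3, with 86.9 CPM.

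Eggshell transcripts varied widely within a group. Their sum ran from 2805 to 21071 CPM within TI alone, and these were the lowest and the highest of the 15 libraries. In TT it was 7279, 6034 and 5182 CPM.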
